A study of Homo sapiens with 52 samples.

Results

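Cpd50 and GSKJ4 were the Jumonji demethylase inhibitors of a compound screen in fusion-positive rhabdomyosarcoma (FP-RMS) cells, and their 4 RNA-seq libraries, of 52 samples in the series, are described here. The members were chosen by their labels: Cpd50 (drug target labelled Pan Jumonji) at 5 and 0.5 µM, and GSKJ4 (labelled JMJD3/UTX, the proteins of KDM6B and KDM6A) at 5 and 0.5 µM, each for 6 h and each with 1 library per dose. The sample titles write RH41 where the cell line label writes RH4. Both are names of established FP-RMS lines that carry PAX3-FOXO1 and that the study used, and the labels do not settle which of them was treated. The controls were 4 DMSO libraries of the same screen at 6 h, 2 at 0.2% and 2 at 0.1% DMSO. Replicate 1 of each DMSO concentration was run on the flow cell that also held the 4 compound libraries, and replicate 2 on another flow cell. All groups were grown in DMEM with 10% FBS, all compounds came from stocks in DMSO, and the labels name no other agent or allele for any group. The labels give a DMSO concentration for the control libraries alone. Dilution from the stated stock would bring less DMSO with a compound than either control received, so the vehicle of treated and control libraries may not be matched.

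Jumonji (JmjC) demethylases remove methyl groups from histone lysines, using oxygen, iron and 2-oxoglutarate. KDM6A and KDM6B act on the histone H3 methyl mark that Polycomb repressive complexes lay down. The same cofactors are used by a wider family of 2-oxoglutarate dioxygenases, among them the EGLN prolyl hydroxylases, which mark the hypoxia-inducible factors for degradation when oxygen is present. GSKJ4 is a cell-permeable ester prodrug that was designed against the KDM6 enzymes. The question put here is which genes each compound moved within 6 h, and where the compounds differed at a matched dose.

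Expression is given as TPM, each gene's length-corrected share of the library, and each gene's values are listed in 1 order: 5 then 0.5 µM for each compound, and for DMSO 0.2% then 0.1% of the shared flow cell followed by 0.2% then 0.1% of the other. The 8 libraries held 16772069 to 22400976 reads and 13443 to 13700 genes at 1 TPM or more. Comparisons used log2(TPM + 1) and limma over 14183 genes that reached 1 TPM in at least 2 of the 8 libraries, and a fold change on this scale understates the change of a low gene. A gene was called when its Benjamini-Hochberg adjusted p was below 0.05 and its log2 fold change was 1 or more in size. The FP-RMS markers MYOD1, MYOG, DES and FGFR4 lay between 413 and 1032 TPM in these libraries, whereas CDH3 was at 0.28 to 0.39 TPM, and each of 12 markers of other cell types was at 0.55 TPM or less. The labels do not say that DMSO replicates were separate cultures, and the 2 libraries of a compound are different doses, so the p-values measure the spread between these libraries, which may be technical. The squared difference between 2 DMSO libraries was 1.65 to 2.49 times counting noise in the typical gene. The replicate by concentration term was at 1.03 times that noise over 10378 genes, so replicates of a concentration may be repeat runs of 1 library. The 2 DMSO libraries of the shared flow cell were therefore used as the control unless stated.

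Cpd50 raised a large set of hypoxia-response genes and lowered few genes by 2-fold. Against the DMSO libraries of the same flow cell, 393 genes were called higher (2.77% of genes tested) and 42 lower (0.296%). Small RNA genes, which poly-A libraries count poorly, were 30 of the higher and 25 of the lower calls. Of 33 measured members of a hypoxia-response list, 29 were called higher and 0 lower, with a median log2 fold change of 2.69, where the median of all genes was -0.07. At the adjusted p alone, 31 of the 33 were higher. Both Cpd50 libraries lay above all 4 DMSO libraries for 32 of the 33 members, against 22.7% of all genes tested. The hypoxia list, like the other gene lists here, was chosen with earlier results of these data known, so list counts are descriptions.

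BHLHE40, a transcriptional repressor of the circadian and hypoxia responses (chr3:5021097-5026865, hg19), gave the largest change among the genes named by rule. For a gene named as higher, that rule required both Cpd50 libraries to lie above all 4 DMSO libraries. Separation of such genes from DMSO was therefore set by the choice, whereas separation from GSKJ4 was not. BHLHE40 was at 231 and 180.2 TPM with Cpd50, 1.72 and 1.92 TPM with GSKJ4 and 1.40, 1.56, 1.77 and 1.82 TPM in DMSO. Both Cpd50 libraries stood far above the other 6, which lay together. The log2 fold change was 6.37 ± 0.14 (SE), with a limma adjusted p of 6.69e-06. ALDOC, a glycolytic aldolase, was at 194 and 143.9 TPM with Cpd50, 2.99 and 3.94 TPM with GSKJ4 and 2.40, 3.46, 2.88 and 2.83 TPM in DMSO. PFKFB4, which sets the level of a glycolytic activator metabolite, was at 169.2 and 141 TPM with Cpd50, 2.59 and 5.18 TPM with GSKJ4 and 3.96, 4.47, 4.79 and 5.06 TPM in DMSO. Neither gene overlapped between Cpd50 and the other libraries, and the log2 fold changes were 5.43 ± 0.20 (SE) for ALDOC and 4.90 ± 0.24 (SE) for PFKFB4, with limma adjusted p of 3.28e-05 and 1.06e-04.

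The promoters of these 3 genes are shown because their genes moved together and because the core of the hypoxia response element can be read in them. Each run is the 250 bases before the RefSeq start (GRCh38.p14, 5′ to 3′ on the gene's strand), with every ACGTG or GCGTG on either strand in capitals: BHLHE40 at chr3:4979187-4979436, plus strand, ALDOC at chr17:28576896-28577145, minus strand, and PFKFB4 at chr3:48556804-48557053, minus strand.
BHLHE40: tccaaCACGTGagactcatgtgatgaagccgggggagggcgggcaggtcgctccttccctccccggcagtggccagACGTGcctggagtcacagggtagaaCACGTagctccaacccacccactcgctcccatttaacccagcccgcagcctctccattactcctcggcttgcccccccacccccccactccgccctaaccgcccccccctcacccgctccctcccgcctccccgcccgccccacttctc
ALDOC: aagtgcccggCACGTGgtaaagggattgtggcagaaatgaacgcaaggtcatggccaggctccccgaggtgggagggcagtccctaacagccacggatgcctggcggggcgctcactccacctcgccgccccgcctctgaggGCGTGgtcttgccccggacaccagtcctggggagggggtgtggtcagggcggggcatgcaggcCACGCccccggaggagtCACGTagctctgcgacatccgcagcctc
PFKFB4: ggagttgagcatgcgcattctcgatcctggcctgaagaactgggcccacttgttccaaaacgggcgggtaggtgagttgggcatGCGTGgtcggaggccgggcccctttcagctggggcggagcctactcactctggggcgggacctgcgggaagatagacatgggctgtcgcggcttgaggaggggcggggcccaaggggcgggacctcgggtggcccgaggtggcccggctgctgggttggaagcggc
The BHLHE40 run holds 4 matches in 3 stretches, 1 of them the palindrome that matches on both strands, and ALDOC holds 5. Shares were counted over each whole promoter, which also runs past the start and so holds more bases than the runs shown. Matches were found in 10 of the 11 named Cpd50-higher genes with a promoter sequence and in 23 of 28 hypoxia-list promoters (82.1%). They were found in 69.4% of the promoters of all genes called higher, in 63.0% of those of genes tested and in 48.4% of all promoters. A match is a description of the letters only.

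Further genes named by rule encode metabolic proteins. PDK1, the kinase that shuts pyruvate out of the mitochondrial cycle, was at 128 and 122 TPM with Cpd50, 5.20 and 4.70 TPM with GSKJ4 and 4.87, 3.95, 4.89 and 4.36 TPM in DMSO. ENO2, a glycolytic enolase, was at 104 and 76.8 TPM with Cpd50, 4.79 and 5.09 TPM with GSKJ4 and 2.51, 3.37, 3.62 and 3.10 TPM in DMSO. For both genes the Cpd50 libraries were the high ones and overlapped no other library, and the log2 fold changes were 4.55 ± 0.11 (SE) and 4.53 ± 0.17 (SE). AK4, a mitochondrial adenylate kinase, was at 90.6 and 94.3 TPM with Cpd50, 3.37 and 3.56 TPM with GSKJ4 and 3.42, 4.18, 3.47 and 3.08 TPM in DMSO. FAM162A, a mitochondrial protein of the hypoxia response, was at 673 and 598 TPM with Cpd50, 21.2 and 28.7 TPM with GSKJ4 and 29.4, 32.3, 32.5 and 26.3 TPM in DMSO. PPP1R3C, which targets a phosphatase to glycogen, was at 93.0 and 70.1 TPM with Cpd50, 4.87 and 4.41 TPM with GSKJ4 and 4.61, 5.33, 4.69 and 4.88 TPM in DMSO. In these 3 genes too the Cpd50 libraries alone were high, by 4.29, 4.32 and 3.78 on the log2 scale, and all 5 limma adjusted p lay between 7.02e-06 and 4.40e-05.

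Genes for secreted or regulatory proteins rose as well. STC1, a secreted calcium-regulating hormone, was at 99.8 and 91.5 TPM with Cpd50, 1.69 and 2.43 TPM with GSKJ4 and 1.69, 2.27, 1.76 and 2.25 TPM in DMSO. APLN, the apelin peptide, was at 27.6 and 23.0 TPM with Cpd50, 0.29 and 0.52 TPM with GSKJ4 and 0.33, 0.20, 0.38 and 0.61 TPM in DMSO. DDIT4, a stress-induced brake on mTOR, was at 844 and 743 TPM with Cpd50, 66.9 and 40.8 TPM with GSKJ4 and 37.4, 41.0, 39.0 and 40.4 TPM in DMSO. Cpd50 stood apart in all 3, and for DDIT4 the GSKJ4 5 µM library was the next highest. The log2 fold changes under Cpd50 were 5.02 ± 0.16 (SE), 4.37 ± 0.17 (SE) and 4.30 ± 0.21 (SE), with limma adjusted p of 1.92e-05, 3.92e-05 and 1.03e-04.

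**Figure D1:**
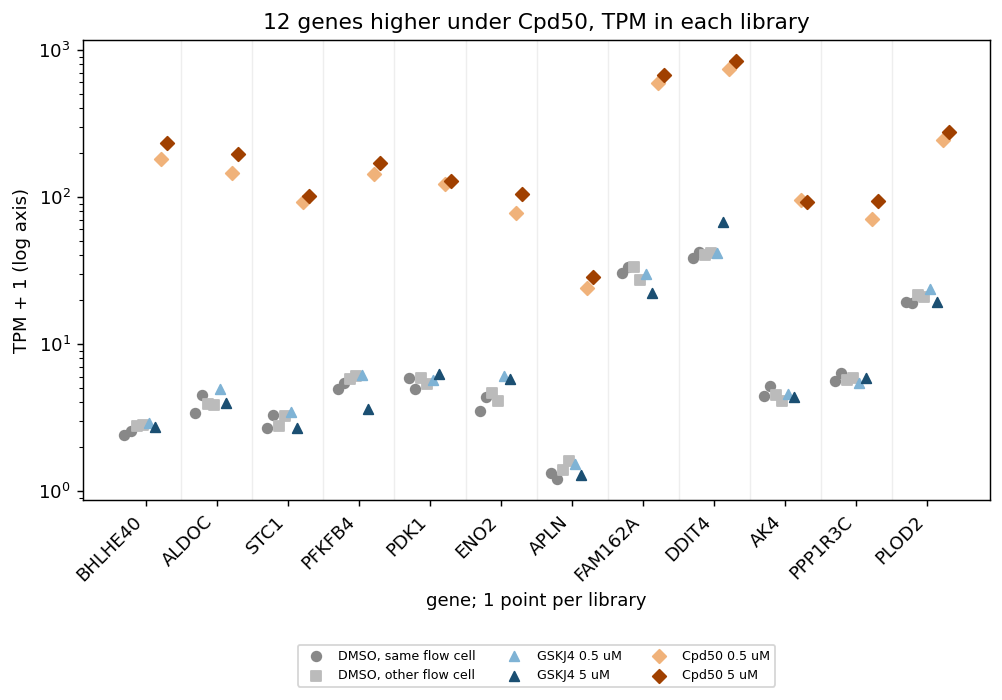
TPM + 1 on a log axis for the 12 genes named by rule as higher under Cpd50, 1 point per library and 8 libraries per gene. The rule required the Cpd50 diamonds to lie above all circles and squares (DMSO), so that separation is no further result. The diamonds also lie above the triangles (GSKJ4) for every gene, which the rule did not require. The 5 and 0.5 µM diamonds lie close together, as for AK4 at 90.6 and 94.3 TPM.

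Other well-known members of the list, picked after their values were seen, moved the same way. VEGFA, the angiogenic growth factor, was at 76.9 and 59.6 TPM with Cpd50, 9.15 and 4.99 TPM with GSKJ4 and 5.32, 5.58, 6.23 and 6.15 TPM in DMSO. LDHA, the lactate dehydrogenase subunit, was at 3521 and 3434 TPM with Cpd50, 342 and 369 TPM with GSKJ4 and 404, 411, 396 and 409.7 TPM in DMSO. BNIP3, a mitophagy receptor of the BCL2 family, was at 1003 and 1028 TPM with Cpd50, 66.7 and 65.8 TPM with GSKJ4 and 74.0, 74.2, 73.6 and 70.7 TPM in DMSO. The Cpd50 libraries were above all others for each of the 3, with log2 fold changes of 3.41 ± 0.25 (SE), 3.09 ± 0.05 (SE) and 3.76 ± 0.05 (SE). The glucose transporter SLC2A1 changed by 3.15 ± 0.10 (SE) and the hexokinase HK2 by 3.39 ± 0.08 (SE). CA9, the cell-surface carbonic anhydrase, went from at most 0.11 TPM in the 4 DMSO libraries to 13.2 and 8.35 TPM. The 4 members not called were LOX at 0.97, RORA at 0.56, ADM at 0.50 and P4HA2 at -0.23. HIF1A, whose protein is controlled by hydroxylation, was itself at 98.3 and 109.8 TPM with Cpd50, 118 and 119.6 TPM with GSKJ4 and 118, 119.7, 125 and 129 TPM in DMSO, and its log2 difference of -0.19 ± 0.07 (SE) did not pass (limma adjusted p 0.0737).

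Several of the rising genes encode 2-oxoglutarate dioxygenases, the enzyme family to which the labelled targets belong. Of 23 members outside the JmjC group, 7 were called higher, where 2.77% of all genes tested were, and 0 lower. Among those called, EGLN1, EGLN3 and P4HA1 are also in the hypoxia-response list and were already counted there. PLOD2, a collagen lysyl hydroxylase, was at 274 and 244 TPM with Cpd50, 18.4 and 22.6 TPM with GSKJ4 and 18.2, 17.9, 20.6 and 19.7 TPM in DMSO. EGLN1, the main prolyl hydroxylase of the hypoxia-inducible factors, was at 158 and 148 TPM with Cpd50, 15.8 and 16.1 TPM with GSKJ4 and 16.9, 16.8, 17.5 and 18.0 TPM in DMSO. EGLN3, a second enzyme of that kind, was at 28.3 and 20.9 TPM with Cpd50, 1.96 and 2.80 TPM with GSKJ4 and 3.13, 2.34, 2.15 and 3.39 TPM in DMSO. No Cpd50 value overlapped a DMSO or GSKJ4 value in these genes, and the log2 fold changes were 3.77 ± 0.11 (SE), 3.11 ± 0.07 (SE) and 2.77 ± 0.20 (SE). P4HA1, a collagen prolyl hydroxylase subunit, changed by 2.42 ± 0.08 (SE). The remaining called members were PLOD1 at 1.18, the RNA demethylase ALKBH5 at 1.09 and the DNA demethylase TET1 at 1.47.

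Among 22 measured JmjC demethylase genes, 5 were called higher under Cpd50, against the same 2.77% of all genes, and 0 lower. Among those called, KDM3A and KDM4B were already counted in the hypoxia-response list. KDM6B, a labelled GSKJ4 target that acts on the Polycomb mark, was at 58.3 and 52.3 TPM with Cpd50, 23.7 and 20.2 TPM with GSKJ4 and 20.0, 18.4, 16.2 and 17.8 TPM in DMSO. KDM3A, an H3 lysine demethylase, was at 122 and 117 TPM with Cpd50, 54.1 and 46.9 TPM with GSKJ4 and 45.4, 41.2, 45.7 and 43.9 TPM in DMSO. Cpd50 was above all other libraries for both, with log2 fold changes of 1.48 ± 0.10 (SE) and 1.44 ± 0.09 (SE) and limma adjusted p of 3.58e-04 and 2.23e-04. KDM4C rose by 1.45, KDM4B by 1.35 and HR, the hairless corepressor, by 1.17. KDM6A, the other labelled GSKJ4 target, was at 20.8 and 21.5 TPM with Cpd50, 24.8 and 21.9 TPM with GSKJ4 and 21.7, 21.8, 21.8 and 21.4 TPM in DMSO. The Cpd50 and DMSO values lay close together, and the log2 difference of -0.04 ± 0.09 (SE) was not past the threshold (95% interval -0.25 to 0.17). Under GSKJ4, KDM6B differed from DMSO by 0.18 (95% interval -0.07 to 0.44) and KDM6A by 0.10 (-0.11 to 0.30), and neither passed.

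Of 14 iron-handling genes, 1 was called higher, a share near the 2.77% of all genes. TFRC, the transferrin receptor, was at 581 and 603 TPM with Cpd50, 294 and 294 TPM with GSKJ4 and 292, 289, 300.2 and 294 TPM in DMSO. Only the Cpd50 libraries were high among these 8, and the log2 fold change was 1.02 ± 0.05 (SE) (limma adjusted p 7.60e-05). HMOX1, the heme oxygenase, changed by 0.82 ± 0.18 (SE) and passed the adjusted p alone. Of 31 muscle genes, 3 were called higher, again beside 2.77% of all genes: the troponin TNNI2 at 1.69, the acetylcholine receptor subunit CHRND at 1.38 and the transcription factor MEF2C at 1.21. Of 21 immediate early genes, 3 were called higher, beside the same 2.77%: FOSL2 at 1.63, DUSP5 at 1.42 and KLF10 at 1.20. Of 23 HOX genes, 2 were called higher, also beside 2.77% of all genes: HOXA4 at 1.26 and HOXA13 at 1.22. At the adjusted p alone these lists went both ways, where 10.6% of all genes were higher and 16.6% lower. Higher and lower were 2 and 3 of the iron genes and 10 and 3 of the muscle genes. They were 6 and 5 of the immediate early genes and 4 and 4 of the HOX genes. The list medians were -0.06, 0.18, 0.09 and -0.04 in that order.

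The genes lower under Cpd50 changed less. Of the 12 named by rule, the log2 fold changes ranged from -1.07 to -1.28. CENPA, the histone variant of centromeres, was at 30.4 and 37.3 TPM with Cpd50, 78.5 and 74.6 TPM with GSKJ4 and 81.1, 77.0, 84.9 and 77.8 TPM in DMSO. MKI67, the proliferation antigen, was at 69.9 and 87.8 TPM with Cpd50, 137 and 173 TPM with GSKJ4 and 168, 163, 167 and 164 TPM in DMSO. HSPH1, a heat shock chaperone, was at 117 and 130.4 TPM with Cpd50, 199 and 215 TPM with GSKJ4 and 285, 285, 298 and 295 TPM in DMSO. For all 3 the Cpd50 libraries were the lowest. The GSKJ4 5 µM library also lay below DMSO for MKI67, and both GSKJ4 libraries did for HSPH1. The log2 fold changes under Cpd50 were -1.21 ± 0.10 (SE), -1.07 ± 0.14 (SE) and -1.20 ± 0.07 (SE), with limma adjusted p of 7.10e-04, 0.00364 and 1.87e-04. FGF8, a growth factor gene, fell from between 168 and 203 TPM in DMSO to 81.4 and 88.8 TPM with Cpd50 (-1.07 ± 0.09 (SE)). OLIG2, a bHLH transcription factor, was at 7.68 and 7.72 TPM with Cpd50, 17.4 and 17.9 TPM with GSKJ4 and 17.3, 17.9, 17.3 and 17.5 TPM in DMSO, so that the Cpd50 values were both under every other library, by -1.09 ± 0.08 (SE). CHST2, a sulfotransferase, and RRS1, a ribosome assembly factor, were called at -1.28 and -1.23. With GSKJ4, CHST2 was at 12.2 and 15.3 TPM, against 18.0 to 18.6 TPM in DMSO. RRS1 was at 43.4 and 69.0 TPM with GSKJ4, against 65.9 to 77.8 TPM in DMSO. Of the 42 genes called lower under Cpd50, 30 had both Cpd50 libraries below all 4 DMSO libraries. Only 11 of the 42 were also called lower against GSKJ4.

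Genes of mitosis were lower under Cpd50 by small amounts that were shared across the list. Only CENPA of 33 was called, but 29 were lower and 0 higher at the adjusted p alone, a level that 16.6% of all genes reached in that direction (10.6% reached it in the other). The list's median was -0.56, against -0.07 for all genes. Both Cpd50 libraries lay below all 4 DMSO libraries for 32 of the 33, where 39.8% of all genes did. PLK1, a mitotic kinase, was at 135 and 129 TPM with Cpd50, 214 and 210.1 TPM with GSKJ4 and 219.9, 223, 211 and 224 TPM in DMSO. CDC20, which activates the anaphase-promoting complex, changed by -0.97, DLGAP5 by -0.86 and TOP2A, a topoisomerase, by -0.59. In bulk RNA, fewer cells in mitosis and less RNA of these genes per cell cannot be told apart. The count of 29 fell to 17 without the DMSO 0.2% replicate 1 library and to 16 without the DMSO 0.1% replicate 1 library. Heat shock genes had a median of -0.40, with HSPH1 called and 7 of 12 lower at the adjusted p alone. These genes were low with GSKJ4 too, with a median of -0.28 and 5 of 12 lower at the adjusted p alone against all 4 DMSO libraries, where 0.726% of all genes were, and with both doses together 0 of 12 were called between the compounds, with 3 lower under Cpd50 at the adjusted p alone. By contrast, 0 of 36 DNA replication genes were called, with 10 higher and 3 lower at the adjusted p alone and a median of 0.13.

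The 6 core regulatory transcription factors, which hold FP-RMS cells in their myogenic state, moved by less than 2-fold under both compounds. MYOD1, a myogenic master factor, was at 437 and 435 TPM with Cpd50, 547 and 506 TPM with GSKJ4 and 647, 639.7, 641 and 648 TPM in DMSO. Its compound values were all below the DMSO values, lowest with Cpd50, and the log2 differences were -0.56 ± 0.05 (SE) for Cpd50 (limma adjusted p 0.00109) and -0.29 ± 0.05 (SE) for GSKJ4 (limma adjusted p 0.219). MYOG, which drives muscle differentiation, was at 611 and 609.7 TPM with Cpd50, 419 and 521 TPM with GSKJ4 and 579, 587, 572 and 575 TPM in DMSO. Cpd50 was above DMSO for MYOG and GSKJ4 below, and neither passed, at 0.07 and -0.32. Against all 4 DMSO libraries, MYOD1 at -0.29 and SOX8 at -0.25 were lower under GSKJ4 at the adjusted p alone (limma adjusted p 0.020 and 0.0291). In the GSKJ4 5 µM library compared on its own, MYOG at -0.48, SOX8 at -0.28 and MYOD1 at -0.23 were lower at the adjusted p alone (limma adjusted p 0.0308, 0.0435 and 0.0484), as were 1.57% of all genes, and 0 of the 6 factors passed with the spread from DMSO alone. Under Cpd50, SOX8 at -0.34 and FOXF1 at -0.55 passed the adjusted p alone, whereas PAX3 at -0.18 and MYCN at -0.05 did not. Median-ratio scaling moved the median of all genes under Cpd50 from -0.07 to 0.03. Small lower values under Cpd50, here and for other genes, thus depend in part on the scaling. The PAX3 rows count reads of the gene PAX3 and were not resolved into the fusion transcript.

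**Figure D2:**
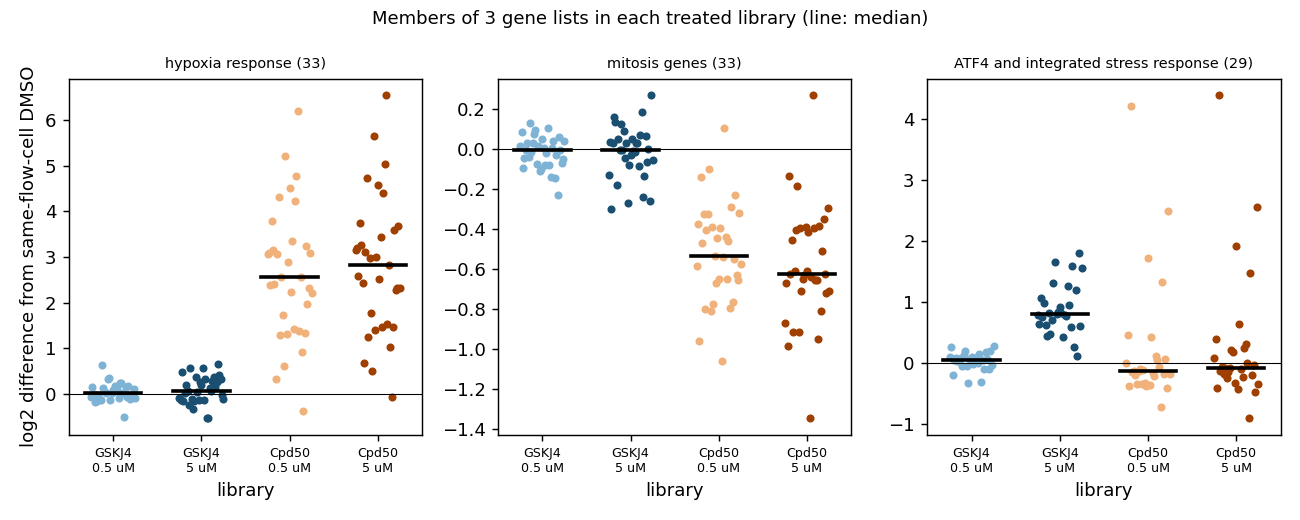
Log2 difference of each list member from the mean of the 2 DMSO libraries of the same flow cell, 1 point per gene, 1 column per treated library, with the median as a line. Hypoxia-response medians were 2.83 and 2.55 with Cpd50 and 0.07 and 0.02 with GSKJ4 at 5 and 0.5 µM, mitosis genes were low with Cpd50 alone, and the ATF4 genes were high in the GSKJ4 5 µM library.

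GSKJ4 gave 0 calls in either direction (0% of genes tested) when both its doses formed 1 group against the DMSO libraries of the same flow cell. The smallest limma adjusted p was 0.117, and 1886 genes had an unadjusted p below 0.05. The 3 genes of smallest p in each direction, named by rule though they did not pass, were LOC102723330 at 1.01, MEG9 at 0.84 and NSUN5P1 at 0.57 among the higher, and SDF2L1 at -0.47, HSPH1 at -0.46 and CDK2AP2 at -0.50 among the lower. For the 12 genes that Cpd50 raised most, the GSKJ4 differences lay between -0.31 for FAM162A and 0.60 for ENO2. The 95% interval of the GSKJ4 difference was -0.14 to 0.51 for BHLHE40 and -0.24 to 0.09 for EGLN1. These comparisons share their DMSO libraries with those of Cpd50.

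The GSKJ4 doses were unlike each other, with a squared difference of 7.12 times counting noise in the typical gene, above every DMSO pair and the Cpd50 doses at 3.04. Each dose was therefore also compared on its own, a choice made after the data were seen. The 0.5 µM library gave 0 calls in either direction (0%), with 1451 genes at an unadjusted p below 0.05 in limma. The 5 µM library gave 60 genes called higher (0.423%) and 14 lower (0.0987%), of which 24 and 10 were small RNA genes. That fit took its spread from the DMSO pair and the Cpd50 pair. The like fit of a single Cpd50 library took its spread from the DMSO pair and the GSKJ4 pair, whose doses were less alike. With the spread from the DMSO pair alone and p-values adjusted over all 4 single-library comparisons, 11 genes were called higher (0.0776%) and 3 lower (0.0212%), and 9 of these 14 were not small RNA genes. The 0.5 µM library gave 6 higher (0.0423%) and 2 lower (0.0141%) in that second fit. Taken the same way as the first of these fits, the Cpd50 library gave 410 higher (2.89%) and 56 lower (0.395%) at 5 µM, and 274 higher (1.93%) and 23 lower (0.162%) at 0.5 µM. With the spread from DMSO alone these counts were 171 higher (1.21%) and 16 lower (0.113%) at 5 µM, and 132 higher (0.931%) and 10 lower (0.0705%) at 0.5 µM.

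The 3 genes that rose most at 5 µM GSKJ4, small RNA genes aside, belong to the response to zinc and other metals. MT2A, a metallothionein that binds zinc, copper and cadmium (chr16:56642478-56643409, hg19), was at 1849 and 230.3 TPM with GSKJ4, 492 and 255 TPM with Cpd50 and 163, 189.8, 187 and 203 TPM in DMSO. SLC30A1, the zinc exporter of the cell surface (chr1:211748381-211752099), was at 146 and 23.1 TPM with GSKJ4, 35.3 and 15.9 TPM with Cpd50 and 12.5, 13.2, 13.7 and 12.2 TPM in DMSO. MT1X, another metallothionein (chr16:56716382-56718108), was at 242 and 4.80 TPM with GSKJ4, 40.5 and 7.25 TPM with Cpd50 and 2.64, 1.21, 2.41 and 3.35 TPM in DMSO. In all 3 the GSKJ4 5 µM library was the highest of the 8, the Cpd50 5 µM library was second, and the 4 DMSO libraries were lowest. The log2 fold changes of the 5 µM GSKJ4 library were 3.39 ± 0.38 (SE), 3.41 ± 0.44 (SE) and 6.42 ± 0.96 (SE), with limma adjusted p of 0.0401, 0.0426 and 0.0471. With the spread from DMSO alone, MT2A and SLC30A1 were still called and MT1X was not (limma adjusted p 0.0506). Metallothionein genes are near copies of each other, so reads may have been split between them.

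SLC39A10, a zinc importer, moved the other way, at 12.2 and 39.6 TPM with GSKJ4, 24.7 and 31.4 TPM with Cpd50 and 37.5, 41.2, 38.9 and 42.7 TPM in DMSO. Its GSKJ4 5 µM value was the lowest of the 8, followed by the Cpd50 libraries, and the log2 fold change was -1.61 ± 0.16 (SE) (limma adjusted p 0.0359). The remaining member of the 5-gene list, the metal-sensing factor MTF1, was at 10.6 and 11.8 TPM with GSKJ4, 9.92 and 10.6 TPM with Cpd50 and 13.0, 13.6, 12.1 and 12.2 TPM in DMSO and was not called, with -0.30 for GSKJ4 at 5 µM. MT1X and SLC39A10 were named after their values were seen.

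The promoters of the 3 rising genes are shown, with each TGCACNC or TGCGCNC (the core of the metal response element, either strand) in capitals, on the same terms as above: MT2A at chr16:56608334-56608583, plus strand, MT1X at chr16:56682220-56682469, plus strand, and SLC30A1 at chr1:211579162-211579411, minus strand.
MT2A: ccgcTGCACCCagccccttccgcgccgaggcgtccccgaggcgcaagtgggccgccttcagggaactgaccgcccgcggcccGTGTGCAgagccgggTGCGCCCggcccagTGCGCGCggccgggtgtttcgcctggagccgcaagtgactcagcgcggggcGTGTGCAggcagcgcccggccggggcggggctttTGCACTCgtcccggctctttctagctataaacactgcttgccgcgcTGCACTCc
MT1X: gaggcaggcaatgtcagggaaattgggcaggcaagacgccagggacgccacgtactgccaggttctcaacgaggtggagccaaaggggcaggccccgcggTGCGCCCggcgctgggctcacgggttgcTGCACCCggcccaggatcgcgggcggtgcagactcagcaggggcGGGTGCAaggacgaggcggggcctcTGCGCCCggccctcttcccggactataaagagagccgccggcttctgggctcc
SLC30A1: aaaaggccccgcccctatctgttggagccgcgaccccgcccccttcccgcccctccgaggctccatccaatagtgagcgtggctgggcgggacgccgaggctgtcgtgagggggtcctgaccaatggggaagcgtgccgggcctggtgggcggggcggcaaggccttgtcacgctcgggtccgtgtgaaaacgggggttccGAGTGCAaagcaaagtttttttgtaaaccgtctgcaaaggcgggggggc
The runs hold 7, 4 and 1 matches, and the whole promoters, which also run past the start, hold 8, 4 and 2. Of the 5 promoters of the list, 3 held a match, against 39.1% of genes tested and 29.3% of all promoters.

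A second set of genes at 5 µM GSKJ4 belongs to the amino acid and integrated stress response, which runs through the transcription factor ATF4. All 29 measured members of that list were above all 4 DMSO libraries in the GSKJ4 5 µM library, where 32.1% of all genes were. Of the 29, 8 were called higher, 24 were higher at the adjusted p alone, where 1.64% of all genes were, and the median log2 difference was 0.81. With the spread from DMSO alone 4 members were called and 10 passed the adjusted p. At 0.5 µM GSKJ4 the list's median was 0.06, and with Cpd50 it was -0.08 at 5 µM and -0.12 at 0.5 µM. Under Cpd50, 4 of the 29 were called higher, where 2.77% of all genes were. They were DDIT4 at 4.30, VLDLR at 2.53, SLC7A5 at 1.82 and STC2, which is also in the hypoxia list, at 1.40. Both Cpd50 libraries lay above all 4 DMSO libraries for 6 of the 29 and below for 14, where 22.7% and 39.8% of all genes did. ASNS, the asparagine synthetase (chr7:97481429-97501854, hg19), was at 135 and 43.8 TPM with GSKJ4, 27.1 and 28.6 TPM with Cpd50 and 38.8, 37.3, 39.4 and 36.5 TPM in DMSO. PSAT1, an enzyme of serine synthesis, was at 164 and 67.4 TPM with GSKJ4, 43.2 and 48.7 TPM with Cpd50 and 54.7, 55.3, 53.6 and 54.4 TPM in DMSO. SLC7A11, the cystine importer, was at 11.3 and 2.83 TPM with GSKJ4, 1.18 and 1.49 TPM with Cpd50 and 3.00, 3.17, 2.86 and 3.01 TPM in DMSO. In each gene the GSKJ4 5 µM library was high and overlapped no other. Both Cpd50 libraries lay under all 4 DMSO libraries in these 3 genes, none of which was called lower under Cpd50. The log2 fold changes at 5 µM GSKJ4 were 1.80 ± 0.07 (SE), 1.56 ± 0.08 (SE) and 1.59 ± 0.16 (SE), with limma adjusted p of 0.0215, 0.0215 and 0.0384.

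CHAC1, which degrades glutathione, was at 15.6 and 4.08 TPM with GSKJ4, 5.10 and 3.85 TPM with Cpd50 and 4.20, 4.29, 4.07 and 4.65 TPM in DMSO, a rise of 1.66 ± 0.17 (SE) in the 5 µM GSKJ4 library. TRIB3, a pseudokinase that restrains ATF4, rose by 1.26, the glycyl-tRNA synthetase GARS by 1.20, the mitochondrial PCK2 by 1.31 and SESN2 by 1.08. INHBE, an activin subunit gene outside the list, was at 41.1 and 6.87 TPM with GSKJ4, 5.26 and 4.30 TPM with Cpd50 and 5.87, 6.37, 5.30 and 6.41 TPM in DMSO. Its GSKJ4 5 µM value stood far above the other 7, which lay together, and the log2 fold change was 2.57 ± 0.14 (SE) (limma adjusted p 0.0215). ATF4 itself was at 645 and 445 TPM with GSKJ4, 429 and 411 TPM with Cpd50 and 428, 431, 393 and 395 TPM in DMSO. It was highest in the GSKJ4 5 µM library and passed the adjusted p alone, at 0.59 ± 0.04 (SE). DDIT3 (CHOP), a further ATF4 target, did not pass, at 0.82 ± 0.13 (SE) (limma adjusted p 0.0508).

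The ASNS and CHAC1 promoters are shown because they hold a composite ATF4 motif, TGATGCAA or TGATGAAA on either strand, in capitals: ASNS at chr7:97872409-97872658, minus strand, and CHAC1 at chr15:40953221-40953470, plus strand.
ASNS: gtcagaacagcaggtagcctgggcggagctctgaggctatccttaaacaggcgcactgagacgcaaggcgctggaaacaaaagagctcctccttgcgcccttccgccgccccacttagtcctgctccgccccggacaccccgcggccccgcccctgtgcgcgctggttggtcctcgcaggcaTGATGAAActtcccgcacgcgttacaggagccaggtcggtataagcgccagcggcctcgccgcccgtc
CHAC1: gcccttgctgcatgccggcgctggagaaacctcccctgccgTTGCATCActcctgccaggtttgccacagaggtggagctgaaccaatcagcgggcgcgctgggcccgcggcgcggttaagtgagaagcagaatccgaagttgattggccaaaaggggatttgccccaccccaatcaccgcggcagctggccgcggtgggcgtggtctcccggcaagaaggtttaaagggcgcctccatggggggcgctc
These 2 were the matches among 21 promoters of the list (9.5%), against 0.8% of genes tested and 2.0% of all promoters. Small RNA genes aside, 22 of the 36 genes called higher at 5 µM GSKJ4 had a promoter sequence. Of these 22, 3 held a match (13.6%): ASNS and CHAC1 again, and DLGAP1-AS2. The 2 shares thus rest largely on the same promoters.

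**Figure D3:**
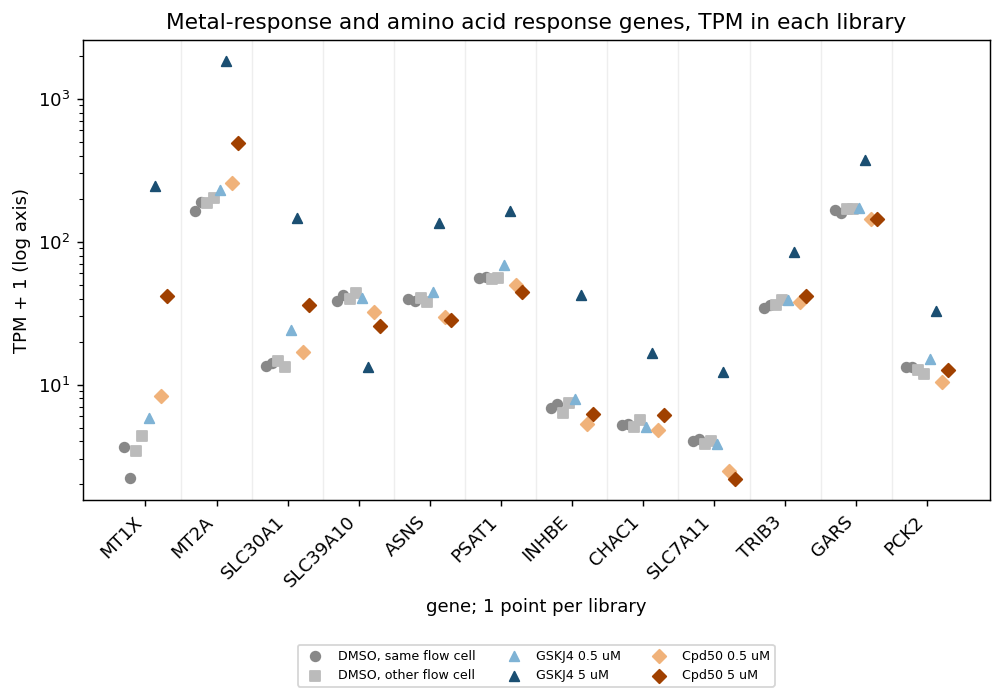
TPM + 1 on a log axis for 4 metal-response genes and 8 amino acid response genes, 1 point per library. The dark triangle, GSKJ4 at 5 µM, is the highest point of every gene other than SLC39A10, where it is the lowest at 12.2 TPM. In MT1X, MT2A and SLC30A1 the Cpd50 5 µM diamond comes next.

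Small RNA genes aside, 25 of the 36 genes called higher at 5 µM GSKJ4 and 3 of the 4 called lower were in neither the metal nor the ATF4 list. A few are given here, chosen after their values were seen. CYP1A1, a xenobiotic-metabolising P450, was at 0.20 and 2.27 TPM with GSKJ4, 1.21 and 0.94 TPM with Cpd50 and 2.44, 2.55, 1.82 and 2.43 TPM in DMSO. Its GSKJ4 5 µM value was the lowest of the 8, with a log2 fold change of -1.54 ± 0.19 (SE) (limma adjusted p 0.0417). GDF15, a secreted stress cytokine, was at 54.6 and 18.8 TPM with GSKJ4, 14.7 and 15.6 TPM with Cpd50 and 13.95, 18.1, 16.4 and 19.6 TPM in DMSO, and DDR2, a collagen receptor kinase, was at 100.2 and 57.7 TPM with GSKJ4, 52.9 and 54.5 TPM with Cpd50 and 46.9, 46.6, 43.0 and 47.6 TPM in DMSO. Both were highest in that library, by 1.72 and 1.08. NEAT1, a nuclear long non-coding RNA, rose by 1.14, the ETS factor gene ETV4 by 1.04, the AP-1 factor gene JDP2 by 1.01, KLHL24 by 1.18 and ANKRD1 by 1.05. ARHGAP9 rose by 1.85, but its locus overlaps that of MARS, the methionyl-tRNA synthetase gene, and reads of the overlap cannot be assigned. Of the heat shock genes, HSPA8 at -0.63, HSPH1 at -0.52, DNAJB1 at -0.52 and DNAJA1 at -0.43 were lower at the adjusted p alone. The mitosis list had a median of -0.01 and 0 called members at 5 µM GSKJ4.

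**Figure D4:**
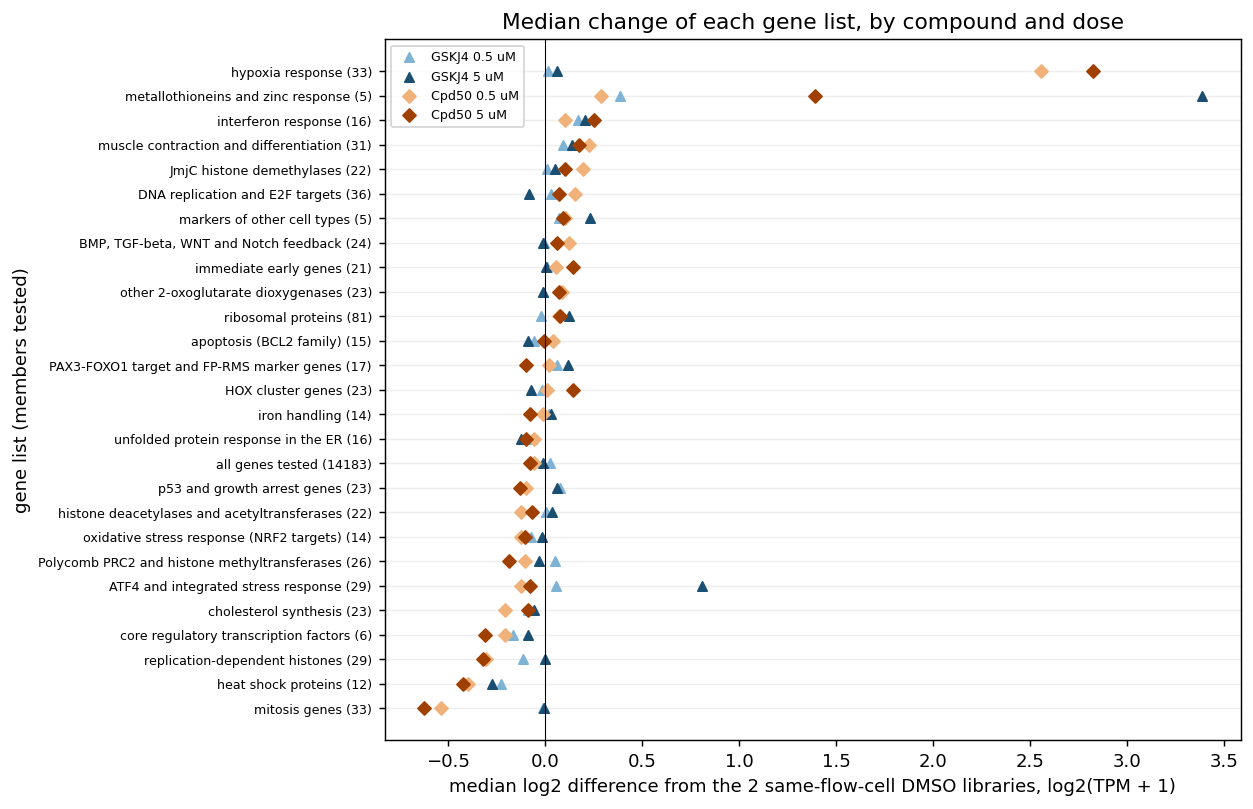
Median log2 difference from the 2 same-flow-cell DMSO libraries for each of 26 gene lists and for all genes tested, by compound and dose. The hypoxia list is the one apart under Cpd50 at both doses, and mitosis genes lie lowest under Cpd50. The metal (3.39) and ATF4 (0.81) lists are apart in the GSKJ4 5 µM library. The metal list is also high with Cpd50 at 5 µM (1.39), and less so at 0.5 µM (0.29).

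At matched dose the compounds were compared in 2 pairs, with p-values adjusted over genes and over both pairs together. With 1 library per compound and dose, each library was assumed to vary like the DMSO pair. At 5 µM, 239 genes were called higher with Cpd50 than with GSKJ4 (1.69%) and 40 lower (0.282%). At 0.5 µM, 180 were higher (1.27%) and 21 lower (0.148%). Of the hypoxia list, 27 of 33 were higher in the 5 µM pair and 26 in the 0.5 µM pair, and 0 were lower in either. These counts rest on the limma trend, without which both pairs gave 0 calls. BHLHE40 differed by 6.42 ± 0.12 (SE) at 5 µM and 5.96 ± 0.12 (SE) at 0.5 µM, with limma adjusted p of 0.0241 in each pair. PFKFB4 differed by 5.57 ± 0.12 (SE) and 4.52 ± 0.12 (SE). KDM6B was higher with Cpd50 by 1.26 ± 0.09 (SE) and 1.33 ± 0.09 (SE).

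Of the 40 genes lower with Cpd50 than with GSKJ4 at 5 µM, 13 were small RNA genes and 11 were members of the ATF4 list. INHBE, outside that list, differed by -2.75 ± 0.13 (SE), SLC7A11 by -2.50 ± 0.14 (SE) and ASNS by -2.27 ± 0.06 (SE), with limma adjusted p of 0.0342, 0.0367 and 0.0286. Of the 29 measured ATF4-list genes, 3 were called higher in that pair. At 0.5 µM, 0 were lower, and the difference for ASNS was -0.60 with a 95% interval of -0.80 to -0.40, which missed the threshold (limma adjusted p 0.0541). SLC30A1 and MT2A were lower with Cpd50 by -2.02 ± 0.08 (SE) and -1.91 ± 0.13 (SE) at 5 µM. At 0.5 µM the interval for MT2A was -0.28 to 0.57. MT1X did not pass at 5 µM, at -2.55 (95% interval -3.96 to -1.15, limma adjusted p 0.0775).

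CENPA was lower with Cpd50 at 5 µM by -1.34 ± 0.06 (SE), as was CENPE, a mitotic motor, by -1.13 ± 0.05 (SE). At 0.5 µM the differences of both were under 2-fold, at -0.98 and -0.83. NOL6 and RRS1, factors of ribosome assembly, were lower with Cpd50 at 0.5 µM, by -1.02 and -1.12. The compounds were not shown to differ for KDM6A, with an interval of -0.49 to -0.01 at 5 µM and -0.26 to 0.21 at 0.5 µM, nor for SOX8, with -0.19 to 0.05 and -0.29 to -0.05. MYOG was higher with Cpd50 at 5 µM by 0.54 ± 0.03 (SE) at the adjusted p alone. Whether the pairs differed from each other was tested as an interaction, in which 0 of 14183 genes passed the limma adjusted p (smallest 0.348), with 1949 at an unadjusted p below 0.05, so no difference between doses was shown.

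**Figure D5:**
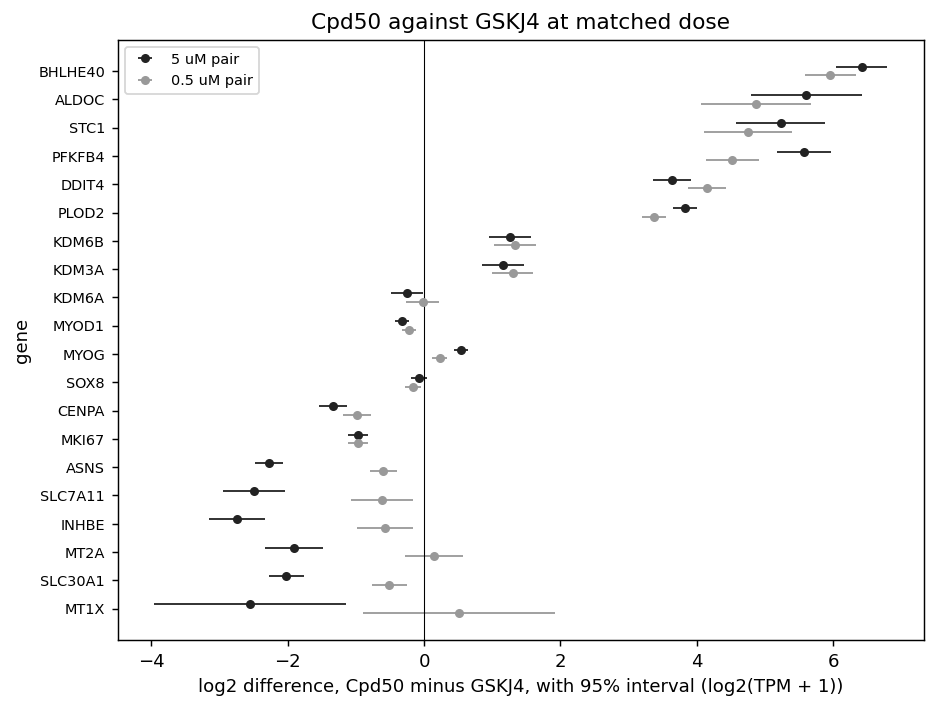
Log2 difference of Cpd50 minus GSKJ4 with its 95% interval for chosen genes, black for the 5 µM pair and grey for the 0.5 µM pair. Hypoxia genes lie to the right in both pairs, such as BHLHE40 at 6.42 and 5.96, whereas ASNS lies at -2.27 in the 5 µM pair and -0.60 in the 0.5 µM pair.

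With both doses together, 329 genes were called higher with Cpd50 than with GSKJ4 (2.32%) and 49 lower (0.345%), and 32 of the lower were small RNA genes. The lower genes named by rule included KLF15, a metabolic transcription factor, at -1.25 ± 0.14 (SE), and DUSP6, a phosphatase that limits ERK signalling, at -1.16 ± 0.14 (SE). DUSP6 was at 18.8 and 22.5 TPM with Cpd50, 51.4 and 43.5 TPM with GSKJ4 and 37.4, 46.8, 39.0 and 49.8 TPM in DMSO. Its Cpd50 values were lowest and its GSKJ4 values lay among or above the DMSO values. FAM72B, at -1.16, has near-identical copies and its reads may have been split between them. JMJD6, a JmjC hydroxylase, was higher with Cpd50 by 1.08 ± 0.09 (SE).

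The 2 doses of each compound are set side by side for a few genes. Under Cpd50, BHLHE40 differed from DMSO by 6.55 at 5 µM and 6.19 at 0.5 µM, AK4 by 4.26 and 4.32, and LDHA was at 3521 and 3434 TPM. For GSKJ4, ASNS differed from DMSO by 1.80 and 0.20, and MT2A by 3.39 and 0.39. The metal genes were also further from DMSO at the higher dose of Cpd50, with MT2A at 1.48 and 0.53 and MT1X at 3.87 and 1.54. A larger difference at 5 µM was thus not particular to GSKJ4 in these genes. These steps rest on 1 library per dose and carry no test.

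Against all 4 DMSO libraries of the screen, 386 genes were called higher (2.72%) and 43 lower (0.303%) under Cpd50, and 14 higher (0.0987%) and 4 lower (0.0282%) under GSKJ4, of which 8 and 3 were small RNA genes. With the replicate number of the DMSO libraries as a block, the GSKJ4 count of 18 fell to 1. With the replicates of each DMSO concentration averaged it was 0, and without the GSKJ4 0.5 µM library it was 85, against 1 without the GSKJ4 5 µM library. BHLHE40 differed by 6.28 ± 0.12 (SE) under Cpd50 and by 0.10 ± 0.12 (SE) under GSKJ4 in this fit.

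The other 36 treated libraries of the screen give a range for these genes. The Cpd50 libraries were the 2 highest of all 44 screen libraries for 27 of the 33 hypoxia-list members. BHLHE40 reached 20.0 TPM at most among the 36 (UNC0638 at 10 µM), EGLN1 24.8 TPM and LDHA 1090.5 TPM (WT161 at 10 µM). WT161, labelled an HDAC6 compound, at 10 µM was the highest of the 36 for 19 of the 33 members. It reached 40.6 TPM for ALDOC, where the median of the 36 was 4.11 TPM, 152 TPM for FAM162A against 29.9 TPM, and 357 TPM for BNIP3 against 71.5 TPM. For KDM4B it reached 63.8 TPM, above both Cpd50 libraries at 60.6 and 56.6 TPM. The GSKJ4 5 µM library was the highest of the 44 for 3 of the 5 metal genes and for 11 of the 29 ATF4-list genes, and among the 3 highest for 20. MT1X was at 15.5 TPM or less and MT2A at 363 TPM or less in the 36. For ASNS the highest of the 36 was 108 TPM. These ranks are descriptions, since each library stands for 1 compound and dose, and the flow cell and the compound cannot be told apart for libraries of other flow cells.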

How the data were processed

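RNA was extracted with the RNeasy kit, and poly-A selected libraries were sequenced on an Illumina HiSeq. According to the study's methods, the authors aligned reads to hg19 with STAR and computed TPM with RSEM. The deposited tables hold 1 TPM value per gene for 27043 genes, with hg19 positions, and no counts. The low values of 23037 of 23037 expressed genes (100%) were whole multiples of a step within 0.02 reads, and this gave the number of reads per library (5737938 to 41415068 over 44 screen libraries). The flow cell was read from the column names.

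TPM values were analysed as log2(TPM + 1) for genes with TPM of 1 or more in at least 2 of 8 libraries, with limma 3.58.1 (R 4.3.3, empirical Bayes with trend) and Benjamini-Hochberg adjustment over 14183 genes. Only the fit of 6 libraries by compound was tried on simulated reads, and the other steps were not. Of 100 genes changed 2-fold under Cpd50, 78 passed the adjusted p and 29 were called. Of 100 changed 4-fold, 97 were called. There were 14 false calls for Cpd50, 13 of them small RNA genes, and 2 for GSKJ4, where no gene was changed. In the simulation both libraries of a compound had the same expected levels, and 1 fixed dispersion served all genes. The squared difference between the real doses was 3.04 times counting noise for Cpd50 and 7.12 for GSKJ4 in the typical gene. The simulated rates therefore do not give the power of the real fit for either compound. The fit was made on 6 libraries of 1 flow cell, with compound as group, then with 1 group per compound and dose for the matched-dose pairs, and on 8 libraries for the comparison with 4 DMSO libraries. The comparison of 1 dose alone with DMSO was added after the data were seen. The members and gene lists were chosen with earlier results of these data known.

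Named genes were the 12 largest changes each way for Cpd50 and 6 each way for GSKJ4 and for Cpd50 against GSKJ4. They were taken among called genes that are no small RNA genes and have a mean TPM of 2 or more. For each compound against DMSO, both its libraries also had to lie on 1 side of all 4 DMSO libraries. That condition was not set for Cpd50 against GSKJ4. Where fewer than 3 were called, the 3 of smallest p were taken. The 3 largest each way were named per matched-dose pair, up to 4 called members per list, the 6 core factors, and KDM6A, KDM6B and called JmjC genes. Some genes that met this rule are not reported here.

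The replicate number of the DMSO libraries marks the flow cell and the compounds carry 1 number only. Deviations of DMSO replicates correlated at 0.311 between concentrations. A block for it was an alternative. Promoters came from RefSeq (GRCh38.p14), of which 10091 of the 14183 tested genes had one. For every motif, shares of promoters with a match were counted over the whole promoter, which runs past the start. The runs shown hold only the bases before the start. The 8 samples outside the screen were not used here.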

Additional observations from a re-analysis of the deposited data

Results flagged for a closer look

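JMJD6, a JmjC hydroxylase gene, had 1 DMSO library apart from the other 3. DMSO 0.1% replicate 1 was at 4.41 on the log2(TPM + 1) scale, or 20.3 TPM, and the other DMSO libraries were at 22.01, 22.04 and 22.37 TPM. The gap passed Dixon's 95% critical value for 4 samples. Of 78 named genes looked at it was the 1 gene with such a library, while chance flags about 1 in 20 groups. JMJD6 was higher in both Cpd50 libraries, at 40.7 and 37.9 TPM, than in any of the 4 DMSO libraries.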

How the results depend on the processing

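The alternatives were the pseudocount, the filter, the scaling, the threshold, the fit and leaving out each library. Cpd50 against DMSO of the same flow cell gave 435 calls. It gave 287 with a mean TPM of 5 or more, 3847 at adjusted p alone, 1261 at 1.5-fold, 187 for the 5 µM library alone and 142 for the 0.5 µM library alone. GSKJ4 gave 0 calls, and it gave 1 with a pseudocount of 0.1, 16 with no filter, 2 with all 44 libraries, 17 without the limma trend, 14 for 5 µM alone, 8 for 0.5 µM alone, and 0 to 74 when 1 library was left out, with 74 without the GSKJ4 0.5 µM library. Cpd50 against GSKJ4 gave 378 calls, with 2823 at adjusted p alone and 971 at 1.5-fold. Against 4 DMSO libraries Cpd50 gave 429 calls, with 284 at a mean TPM of 5 or more, 6367 at adjusted p alone, 1343 at 1.5-fold and 654 by limma-voom on whole reads. The replicate block gave 437, while it took the GSKJ4 count from 18 to 1. GSKJ4 against 4 DMSO libraries gave 18 calls. It gave 9 with a mean TPM of 5 or more, 9 with no filter, 336 at adjusted p alone, 73 at 1.5-fold, 1 with all 44 libraries, 1 with the replicate block, 0 with DMSO replicates averaged, 51 by limma-voom, 11 without the trend and 7 with small RNA genes left out. It gave 1 to 85 when 1 library was left out: 8 without DMSO 0.2% replicate 2, 10 and 11 without DMSO 0.1% replicates 1 and 2, 1 without GSKJ4 5 µM and 85 without GSKJ4 0.5 µM. The 5 µM pair gave 279 calls, with 131 at no filter, 508 at adjusted p alone, 443 at 1.5-fold, 483 with all 44 libraries, 632 by limma-voom and 0 without the trend. The 0.5 µM pair gave 201 calls, with 371 at adjusted p alone, 324 at 1.5-fold, 351 with all 44 libraries, 442 by limma-voom and 0 without the trend. The cause of these moves was not tested.

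Hypoxia-list members called under Cpd50 numbered 24 to 31 under all alternatives run, against 29. Mitosis genes lower at adjusted p alone were 14 with 5 µM alone and 9 with 0.5 µM alone, against 29. MYCN and KDM6A under Cpd50 changed sign with median-ratio scaling, to 0.05 and 0.06, and neither passed. Of the 393 genes higher under Cpd50, 360 were also called against 4 DMSO libraries. A DMSO library could not be left out of the matched-dose pairs, since no spread between replicates would remain. Each dose is 1 library of 18328620 to 20523557 reads, which bounds what can be said of a single dose.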

Other observations

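Among lists not described above, 2 of 15 BCL2-family genes were called higher under Cpd50, where 2.77% of all genes were. They were the mitophagy receptors BNIP3 at 3.76 and BNIP3L at 2.31 on the log2 scale, both already counted in the hypoxia list. Of 81 ribosomal protein genes 0 were called under Cpd50, with a median of 0.07, and of 23 cholesterol synthesis genes 0 were called, with a median of -0.17. PDGFRB, a receptor of mesenchymal cells, was the 1 called member of 5 measured markers of other cell types, beside the same 2.77% of all genes. It was at 19.0 and 15.2 TPM with Cpd50, 9.62 and 10.1 TPM with GSKJ4 and 7.32 to 9.07 TPM in DMSO.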
